A study of Homo sapiens with 4 samples.

Results

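Open chromatin after Activin A plus Wnt3a was compared with open chromatin after Wnt3a alone, in H1 cells treated for 6 h. Peaks from both lists that overlapped or touched were merged, which gave 59982 regions, out of 87966 regions when the lists of all 4 libraries of the series were merged. A region was called combined-only when it held a peak of the Activin A plus Wnt3a list and none of the Wnt3a list, Wnt3a-only in the reverse case, and shared when it held peaks of both. No measured value chose the regions beyond the presence of a peak, and each side was 1 library.

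H1 is a long-established line of human embryonic stem cells, here on Matrigel with no feeder cells, and ATAC-seq marks open chromatin by the sites where a transposase can insert sequencing adapters. The groups were Activin A plus Wnt3a (25 ng/ml of each ligand), Wnt3a (25 ng/ml) and Activin A (25 ng/ml), each harvested after 6 h, and an untreated control with no stated time. All treated cells were in a medium with B27, for which neither N2 nor bFGF is listed. The stated medium and ligands of the combined and Wnt3a libraries thus differed by Activin A only. Neither group was replicated, so differences in culture, library preparation or read number could not be separated from the ligand. The control stayed in growth medium with N2, B27 and bFGF, so the Activin A and control libraries differed in medium as well as in ligand. The labels give the same differentiation status, early mesendoderm, to all 4 libraries including the control. Markers of pluripotent or other cells were not analysed here, so the labelled cell type was not checked against them.

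Activin A binds activin receptors, which phosphorylate SMAD2 and SMAD3. These enter the nucleus with SMAD4, bind DNA weakly at short SMAD boxes and are brought to enhancers by partner factors such as FOXH1. Wnt3a binds Frizzled and LRP receptors and stabilises beta-catenin, which acts on DNA through TCF and LEF factors. In embryonic stem cells Activin and Nodal signalling helps to maintain pluripotency and, together with Wnt signalling, drives the cells towards mesendoderm, the precursor of mesoderm and endoderm.

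The comparison asked which regions were open when Activin A was added to Wnt3a. Of the 59982 regions, 39919 were combined-only, which is 66.6%, with an exact binomial 95% interval of 66.2 to 66.9. The Wnt3a-only regions numbered 1938, or 3.23%. The shared regions numbered 18125, or 30.2%. These shares were the background of the comparison itself, since every region was counted. Intervals throughout cover counting error only, and with 1 library a side no test was made and no p-value is given. The lists differed in length, with 58382 peaks after both ligands against 21078 after Wnt3a, and covered 50.9 Mb against 14.7 Mb. With the same number of best-scoring peaks taken from each list, 7190 regions were combined-only and 6270 were Wnt3a-only. The number of reads behind each list is unknown, and its part in the excess of combined-only regions was not tested.

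Seen from each list, 68.8% of the 58044 combined regions had no Wnt3a peak (95% interval 68.4 to 69.2), and 9.66% of the 20063 Wnt3a regions had no combined peak (9.25 to 10.1). The combined-only regions were narrower and weaker than the shared ones. Their median width was 652 bp, against 548.5 bp for Wnt3a-only regions and 1130 bp for shared regions. A shared region spans peaks of both lists, which widens it by construction. At like combined score the combined peaks themselves were closer in width. Medians at combined-only and shared regions were 696 and 746 bp in the fifth decile of scores, and 1589 and 1549 bp in the highest. Their median score was at the 36.8th percentile of the combined list, whereas shared regions stood at the 81.8th percentile of that list. Wnt3a-only regions had their median at the 21.0th percentile of the Wnt3a list, and shared regions at the 55.6th percentile of it. Most shared regions were simple pairs, with 16940 (93.5%) holding 1 peak from each list. In 855 of them 1 combined peak spanned 2 or more Wnt3a peaks, and in 231 the reverse was found. A combined peak lay within 1 kb of 372 Wnt3a-only regions (19.2%), and a Wnt3a peak within 1 kb of 2560 combined-only regions (6.41%). The median distance to the nearest shared region was 31.9 kb for combined-only regions and 30.9 kb for Wnt3a-only regions.

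The share of one-sided regions fell with score in both lists. Among combined regions without a Wnt3a peak the share was 95.6% in the lowest decile of the combined list, 84.8% in the fifth, 50.7% in the eighth, 27.8% in the ninth and 5.07% in the highest. Among Wnt3a regions without a combined peak it was 24.1%, 9.02%, 0.997%, 0.150% and 0.150% in the same deciles of the Wnt3a list. The strongest Wnt3a regions were thus nearly all present after both ligands, with 3 of the 2087 regions in the highest 10% of Wnt3a scores lacking a combined peak. Of the 5830 regions in the highest 10% of combined scores, 299 (5.13%) lacked a Wnt3a peak.

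**Figure D1:**
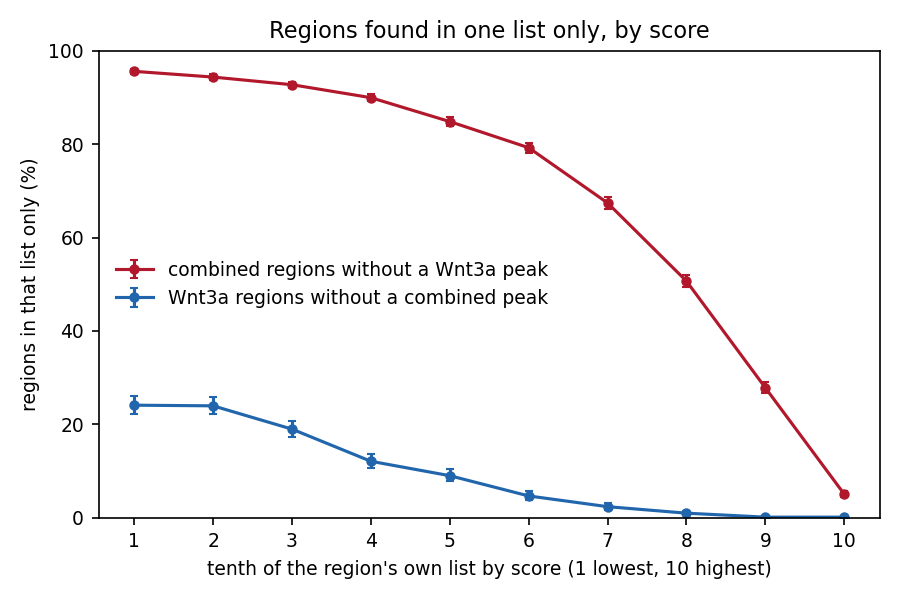
Share of regions found in one list only (vertical axis, percent) by decile of the region's own list ordered by score (horizontal axis, 10 highest), for combined regions without a Wnt3a peak and Wnt3a regions without a combined peak; bars are exact 95% binomial intervals. The combined line lies above the Wnt3a line in every decile and drops to 5.07% in the highest, against 0.150% for Wnt3a.

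The starts of 44 genes with known hg19 positions, a fixed sample of human genes that was not drawn from these data, were looked up in both lists. A gene start counted as open when a peak lay within 1 kb of it. Starts of 33 genes (75%) were open after both ligands, against 22 (50%) after Wnt3a, with exact 95% intervals of 59.7 to 86.8% and 34.6 to 65.4%. All 22 starts open after Wnt3a were also open after both ligands. The other 11 of the 33 were combined-only, no gene was Wnt3a-only, and 11 genes had a peak in neither list. Thus 11 of 33 starts open after both ligands had no Wnt3a peak, beside 68.8% of all combined regions, and 0 of 22 open after Wnt3a had no combined peak, beside 9.66% of all Wnt3a regions. These shares are not like for like, since a gene counted any peak within 1 kb of any of its starts, while regions needed overlap. Scores at the starts were also high, where one-sided regions were fewer. Their median lay at the 87.4th percentile of the combined list for starts open in both and the 68.4th for combined-only starts. In the libraries that the classes did not use, 33 starts were open after Activin A and 26 in control. The 11 combined-only starts were all open after Activin A, and 6 of them were open in control. Where both lists had a peak, the best scores ran from 57.1 to 1052 after both ligands (median 296) and from 58.6 to 394 after Wnt3a (median 108). At the combined-only starts the best score ran from 51.4 to 282, with a median of 145, below the median of the starts open in both.

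Promoters are shown for the pair of combined-only genes with the highest combined scores, IQCC and TLR2, and the pair open in both lists with the highest Wnt3a scores, R3HDM1 and C4orf46, so that the letters at a start open on one side can be read beside those open on both. Each runs 5′ to 3′ on the strand of its gene, from 250 bases before to 50 after the start, from RefSeq on GRCh38.p14. The peaks are on hg19, so gene and promoter were matched by gene and not by position, and a gene with several starts may be open at another one. Capitals mark CAGAC (the SMAD box) or ATCAAAG (a TCF and LEF motif) on either strand.

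IQCC promoter (chr1:32205421-32205720, plus strand): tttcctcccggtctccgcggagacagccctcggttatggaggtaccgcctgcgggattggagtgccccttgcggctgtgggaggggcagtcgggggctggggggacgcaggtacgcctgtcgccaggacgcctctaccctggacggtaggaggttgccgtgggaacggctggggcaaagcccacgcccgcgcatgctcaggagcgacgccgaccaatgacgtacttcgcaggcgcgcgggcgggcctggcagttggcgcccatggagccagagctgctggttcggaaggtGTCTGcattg

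TLR2 promoter (chr4:153684030-153684329, plus strand): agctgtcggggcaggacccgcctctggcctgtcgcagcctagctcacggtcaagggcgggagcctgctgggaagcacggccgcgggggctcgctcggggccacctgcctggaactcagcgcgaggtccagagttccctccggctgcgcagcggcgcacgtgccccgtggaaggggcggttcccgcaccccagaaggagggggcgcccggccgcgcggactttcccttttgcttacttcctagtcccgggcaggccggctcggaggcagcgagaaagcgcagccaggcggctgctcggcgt

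R3HDM1 promoter (chr2:135531234-135531533, plus strand): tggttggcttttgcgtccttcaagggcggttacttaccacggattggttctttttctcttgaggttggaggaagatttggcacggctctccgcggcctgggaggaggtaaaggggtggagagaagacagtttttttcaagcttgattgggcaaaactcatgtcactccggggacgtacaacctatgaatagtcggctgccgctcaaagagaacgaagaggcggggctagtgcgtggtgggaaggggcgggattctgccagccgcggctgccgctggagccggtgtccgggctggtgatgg

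C4orf46 promoter (chr4:158672007-158672306, minus strand): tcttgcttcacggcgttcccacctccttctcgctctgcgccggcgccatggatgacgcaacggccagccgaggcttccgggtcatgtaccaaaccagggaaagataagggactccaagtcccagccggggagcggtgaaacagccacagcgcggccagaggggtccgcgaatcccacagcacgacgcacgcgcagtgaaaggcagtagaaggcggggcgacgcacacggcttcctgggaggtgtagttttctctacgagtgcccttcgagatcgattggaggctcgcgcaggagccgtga

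CAGAC or its complement occurred in the IQCC promoter once and in none of the TLR2, R3HDM1 and C4orf46 windows. Over 35116 promoters of the same length, 45.3% held that motif. ATCAAAG or its complement was in none of the 4 windows and in 2.62% of all promoters. CCAAT, on either strand, occurred 2 times in IQCC, 2 times in R3HDM1 and 1 time in C4orf46, and in 34.6% of all promoters. GGGCGG, the GC box, occurred 1 time in IQCC, 2 times in TLR2 and 2 times in R3HDM1, and in 45.0% of all promoters. The letters of these windows say nothing of whether a factor was bound. Base composition was alike in the open classes. Over the genes with a table entry, the median GC content was 67% for 7 combined-only genes, 64.3% for 18 genes open in both lists and 46.3% for 9 genes open in neither. The median number of CpG dinucleotides in the 300 bases was 29, 26.5 and 5 in the same order, against 14 over all 27305 promoters with one entry per gene.

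IQCC, on chromosome 1 at position 32671236 of hg19, had a score of 282 after both ligands, no Wnt3a peak, 452 after Activin A and 126 in control. TLR2, a receptor that recognises bacterial lipoproteins, starts on chromosome 4 between 154605441 and 154609054 and had 237 after both ligands, no Wnt3a peak, 89.1 after Activin A and 54.5 in control. Both starts were therefore open in each library except Wnt3a. CERCAM, named as a cell adhesion molecule of brain endothelium, had 228 after both ligands, no Wnt3a peak, 294 after Activin A and 113 in control. SRPK1, a kinase that phosphorylates SR splicing factors, had 156 after both ligands, no Wnt3a peak, 365 after Activin A and 64.3 in control. TFAP2A-AS1, a non-coding RNA antisense to the transcription factor gene TFAP2A, had 145 after both ligands, no Wnt3a peak, 324 after Activin A and 86.1 in control. These scores are the authors' own values for each peak and are not on one scale across lists, so only presence and rank within a list can be compared. The 6th start open in control, of a gene whose ID matched no RefSeq symbol, had 73.9 after both ligands, no Wnt3a peak, 164 after Activin A and 59.8 in control.

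A further 5 combined-only starts had peaks after both ligands and after Activin A and none in Wnt3a or control. LRRC52, an auxiliary subunit of a potassium channel, had scores of 175 after both ligands and 145 after Activin A. MIR1204, a microRNA gene, had 80.5 after both ligands and 345 after Activin A. PITX1, a homeobox factor that specifies hindlimb identity, had 67.7 after both ligands and 176 after Activin A. The remaining members were ARMCX3, a protein of the mitochondrial outer membrane, with 57.3 after both ligands and 69.6 after Activin A, and BCAS1, known from oligodendrocytes, with 51.4 and 56.6 in the same order. BCAS1 lay close to the lowest scores of both lists, which were 50.03 after both ligands and 50.05 after Activin A. ARMCX3 stood at percentile 14.3 of the combined list and 23.2 of the Activin A list.

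At the 22 starts open in both lists, the percentile rank of the best score was higher after both ligands at 20 genes when each list was ranked whole, with a median difference of 19.6 points. Among the 20 of them that lie in shared regions ranked against shared regions only, 10 were higher after both ligands and 10 lower, with a median difference of 0.65 points. These counts thus depended on which regions were ranked. PHF8, a histone lysine demethylase gene on chromosome X, had scores of 317 after both ligands, 58.6 after Wnt3a, 337 after Activin A and 78.1 in control, and its rank among shared regions was 65.1 points higher after both ligands. ZNF107, a zinc finger gene, had 319.5 after both ligands, 70.0 after Wnt3a, 557 after Activin A and 114 in control, a rank 41.2 points higher after both ligands. MCTP2, a membrane protein with C2 domains, had 553 after both ligands, 120 after Wnt3a, 775 after Activin A and 198 in control, and ranked 19.6 points higher after both ligands. PFKFB2, an enzyme that sets the level of a glycolytic activator, had 609 after both ligands, 131 after Wnt3a, 915 after Activin A and 269 in control, and ranked 16.6 points higher.

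Other starts ranked lower after both ligands. CLCN4, a chloride and proton exchanger gene on chromosome X, had scores of 57.1 after both ligands, 92.0 after Wnt3a, 134 after Activin A and 62.7 in control, a rank 48.3 points lower after both ligands among shared regions, a difference of -48.3. It was 1 of 2 starts, with PRPF39, that also ranked lower in the whole lists. PRPF39, a splicing factor of the U1 particle, had 205 after both ligands, 168 after Wnt3a, 271 after Activin A and 211 in control, a difference of -41.1 points. SKA3, a protein that couples kinetochores to microtubules, had 275 after both ligands, 154 after Wnt3a, 531 after Activin A and 146 in control, a difference of -23.3 points. The strongest starts hardly moved. R3HDM1 had 1052 after both ligands, 394 after Wnt3a, 1271 after Activin A and 441 in control, a difference of -0.31 points, and C4orf46 had 915, 270.2, 1472 and 198 in that order of libraries, a difference of 1.61 points. RIF1, a factor of replication timing and DNA break repair, had 626, 194, 501 and 206, a difference of 2.57 points.

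Several genes with moderate scores changed rank by less. SARS2, the mitochondrial seryl-tRNA synthetase, had scores of 385 after both ligands, 125 after Wnt3a, 573 after Activin A and 108 in control, a difference of 3.56 points among shared regions. ZDHHC23, a palmitoyltransferase, had 472 after both ligands, 137 after Wnt3a, 512 after Activin A and 53.3 in control, a difference of 6.74 points. ETV6, a repressor of the ETS family, had 182 after both ligands, 83.6 after Wnt3a, 304 after Activin A and 59.3 in control, a difference of -3.91 points. Their control scores were low in the case of ZDHHC23 and ETV6, at the 12.4th and 26.0th percentiles of the control list. AMPD3, an AMP deaminase, had 142 after both ligands, 80.4 after Wnt3a, 304 after Activin A and 63.0 in control, a difference of -10.7 points. ZP3, a glycoprotein of the egg coat, and TBC1D12, a regulator of Rab GTPases, were open in the 3 treated libraries and had no control peak. ZP3 had 198 after both ligands, 61.5 after Wnt3a and 86.9 after Activin A, and TBC1D12 had 118, 68.6 and 303 in the same order.

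The 11 genes with no peak within 1 kb in the combined or Wnt3a lists had none after Activin A or in control either. They include genes known for expression in specialised cells, such as the olfactory receptor genes OR2K2 and OR12D2, the hair keratin gene KRT85, S100A9 of neutrophils and UROC1, a histidine-degrading enzyme of the liver. The others were MSTO2P, GAB3, IDO2, MLC1, EHHADH-AS1 and SERPINB4.

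**Figure D2:**
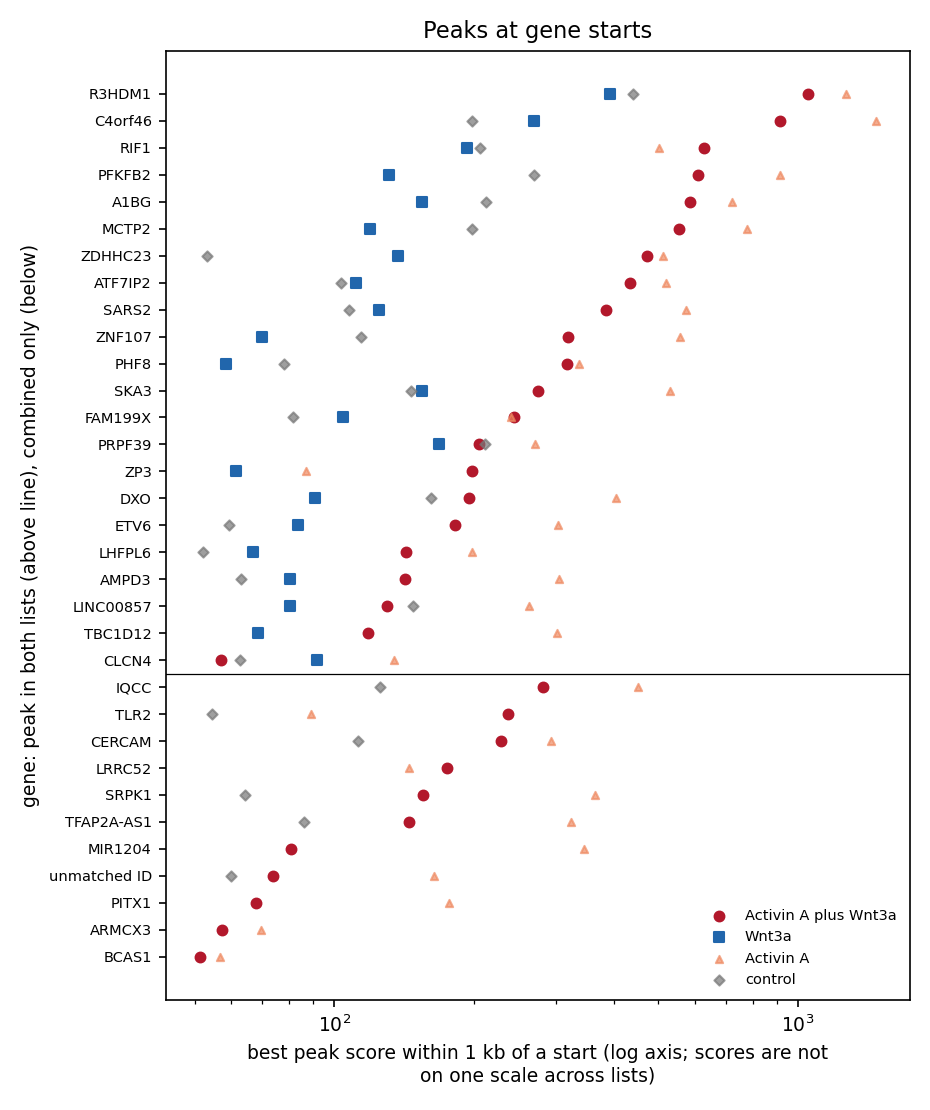
Best peak score within 1 kb of each gene start (horizontal axis, log scale, authors' score without units) for the 22 genes open in both lists (above the line) and the 11 combined-only genes (below it), with 1 point per library. Points of different libraries are not on one scale; the Wnt3a marker is absent from all 11 lower rows, while the Activin A marker is present in every row.

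The Activin A and control lists, which had no part in the classes, were then read at each region. Of the 39919 combined-only regions, 71.3% had an Activin A peak and 21.3% a control peak. Of the 1938 Wnt3a-only regions, 55.7% had an Activin A peak and 10.7% a control peak. Of the 18125 shared regions, 98.1% had an Activin A peak and 72.4% a control peak. A peak after Activin A and none in control was found at 20546 combined-only regions (51.5%, interval 51.0 to 52.0), 909 Wnt3a-only regions (46.9%, 44.7 to 49.2) and 4724 shared regions (26.1%, 25.4 to 26.7). Combined-only regions with peaks in both Activin A and control, and so missing from Wnt3a alone, numbered 7911 (19.8%). Another 10890 (27.3%) were in neither list, as were 821 Wnt3a-only regions (42.4%). The Activin A list was the longest, with 75585 peaks, and the control list held 26223. With all lists cut to the length of the shortest, an Activin A peak without a control peak was found at 24.6% of combined-only regions and 15.4% of shared regions.

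Since combined-only regions were weaker than shared ones, the 2 classes were also set side by side within each decile of the combined list. In the lowest decile, 40.9% of combined-only and 66.0% of shared regions had an Activin A peak and no control peak. In the fifth decile the shares were 62.2% and 60.6%, in the eighth 45.4% and 31.7%, and in the ninth 28.9% and 14.6%. In the highest decile they were 9.52% (6.42 to 13.5) of 294 combined-only regions and 2.18% (1.81 to 2.60) of 5510 shared regions. The difference thus changed direction along the list, with combined-only regions lower in the weakest deciles and higher in the strongest. Of all combined regions, 98.3% in the eighth decile and 99.98% in the highest had an Activin A peak. In those deciles the measure therefore mostly shows which regions lacked a control peak. It is not a separate result there from the control shares below. Widths in the highest decile were close, with a median of 1589 bp in combined-only and 1549 bp in shared regions. A control peak was less frequent in combined-only regions in every decile, with 7.66% against 20.7% of shared regions in the lowest, 17.9% against 35.5% in the fifth, 70.8% against 85.3% in the ninth and 90.5% against 97.8% in the highest.

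Strong combined-only regions were mostly open in the Activin A and control libraries, though less often in control than strong shared regions. In the highest 25% of combined scores, 3232 of 14559 regions (22.2%, interval 21.5 to 22.9) had no Wnt3a peak. Of these 3232, an Activin A peak was present at 3200 (99.0%) and a control peak at 2185 (67.6%). Activin A without control accounted for 1032 (31.9%), and 15 were in neither list. Of the 11327 shared regions in the same 25%, 99.9% had an Activin A peak and 89.3% a control peak. Activin A without control accounted for 10.6% of them. In the highest 10%, all 299 had an Activin A peak and 271 had a control peak. On the other side, 19 of 5211 regions in the highest 25% of Wnt3a scores (0.365%) had no combined peak. Of these, 17 had an Activin A peak and 8 a control peak. Among all Wnt3a regions in the eighth decile of that list, the shares were 99.8% and 87.9%.

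The 10 combined-only regions with the highest combined scores ranged from 597 to 704 in score and from 1406 to 2836 bp in width, and all 10 had an Activin A peak. Control peaks were present in 9. The first, in band 1p36.21 (chr1:16160681-16162909, hg19), had a score of 704 after both ligands, no Wnt3a peak, 425.5 after Activin A and 87.1 in control. The second, in 10q23.33 (chr10:95039821-95041467), had 701 after both ligands, no Wnt3a peak, 491 after Activin A and 137 in control. Both had control scores outside the highest 10% of the control list, which began at 180.3. The region in 7q11.23 (chr7:75946788-75948531) had 632 after both ligands, no Wnt3a peak, 983 after Activin A and 229 in control, and that in 6p12.1 (chr6:53658125-53660642) had 627 after both ligands, no Wnt3a peak, 633 after Activin A and 166 in control. The region in 15q22.31 (chr15:63795181-63797955) was the one with no control peak, with 607 after both ligands and 309 after Activin A. The others lay in 22q13.1 (chr22:38597222-38599941), 14q24.3 (chr14:74813677-74816512), 1p34.2 (chr1:40722953-40724358), 11q13.1 (chr11:63765757-63768572) and 12q14.1 (chr12:62995756-62997718).

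The 5 Wnt3a-only regions with the highest Wnt3a scores ranged from 148 to 264 in score and from 332 to 1460 bp in width. The first, in 4p11 next to the centromere (chr4:49658846-49659892), had no combined peak, 264 after Wnt3a, 226 after Activin A and 89.9 in control. The second, in 10q24.2 (chr10:101296482-101297941), had no combined peak, 217 after Wnt3a, 153 after Activin A and 65.5 in control. The third, in 10q11.21 (chr10:42364589-42365529), had 203 after Wnt3a and 93.2 after Activin A, with no combined or control peak. The last were in Xp11.21 (chrX:55209579-55209910), with 158 after Wnt3a and 68.5 in control alone, and in 2q35 (chr2:215314988-215315770), with 148 after Wnt3a, 66.9 after Activin A and 70.2 in control. No Wnt3a-only region among these 5 was therefore absent from both other libraries. Bands of centromeric staining held 73 combined-only regions (0.183%, interval 0.143 to 0.230), 23 Wnt3a-only regions (1.19%, 0.754 to 1.78) and 81 shared regions (0.447%, 0.355 to 0.555). Repeated sequence near centromeres can take up reads from other copies, and its part in the Wnt3a-only regions was not tested.

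For the 18125 shared regions, the change in percentile rank of the best score, combined minus Wnt3a, was taken. Ranked within the full lists, the median change was 17.5 points, with quartiles at 3.84 and 38.1, and 84.6% of regions ranked higher after both ligands. A change of over 25 points upwards was found in 7194 regions (39.7% of all shared regions) and downwards in 461 (2.54%). A longer list adds weak peaks below the shared ones, which lifts the shared regions' ranks by construction. Ranked among the shared regions alone, the median change was -0.74 points, with quartiles at -15.8 and 14.4 and an SD of 25.3 over regions. That ranking centres the mean change on 0, so a median near 0 and like numbers of rises and falls are built in. By it 2779 regions (15.3%) rose by over 25 points and 2745 (15.1%) fell by as much. Rises and falls below use the ranking among shared regions, which places both libraries on the same regions. Where regions with peaks in all 4 lists are named, the ranks were taken over those regions instead.

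**Figure D3:**
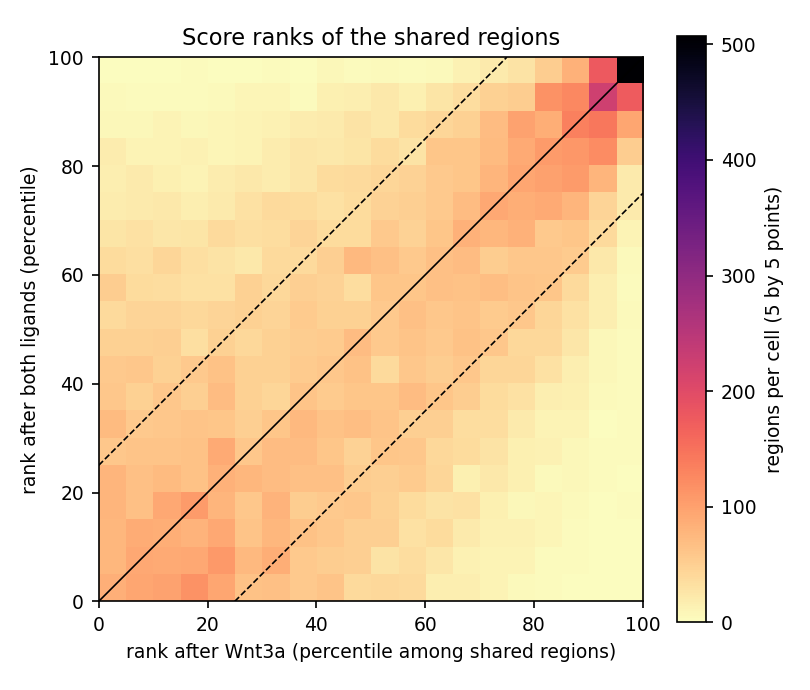
Percentile rank of the 18125 shared regions after both ligands (vertical axis) against that after Wnt3a (horizontal axis), both among shared regions, in cells of 5 by 5 points shaded by the number of regions; the solid line marks equal ranks and dashed lines a change of 25 points. The fullest cell, with 507 regions, is at the highest ranks of both, and the regions spread widely at lower ranks, with 2779 above the upper dashed line and 2745 below the lower one.

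The 8 named rises had scores of 578 to 779 after both ligands and 58.6 to 65.4 after Wnt3a. The latter stood at percentiles 1.75 to 20.4 of the Wnt3a list, whose lowest score was 51.1. The first, in 17q11.2 (chr17:27046129-27048077), had 686 after both ligands, 59.2 after Wnt3a, 448 after Activin A and 204.5 in control, and its rank among shared regions was 94.0 after both ligands against 3.27 after Wnt3a. The second, in 1p22.3 (chr1:84971053-84972723), had 632, 59.0, 676 and 144 in that order of libraries, with ranks of 92.5 and 2.72. The third, in 5q31.3 (chr5:141255136-141259352), had 578, 58.6, 358 and 55.8. It differed from the first pair in having a low control score. The region in 5q31.2 (chr5:139026290-139032042) had 776 after both ligands, 65.4 after Wnt3a, 186 after Activin A and 113 in control, and at 5753 bp it was the widest of the 8. The remaining rises were in 16p13.11 (chr16:15149440-15150481), 1p36.31 (chr1:6305019-6307365), 1p34.3 (chr1:39873421-39875742) and 12q22 (chr12:93963067-93967025), with changes of 86.8, 85.3, 84.6 and 80.7 points.

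Ranked over the 13063 regions that held peaks of all 4 lists, the Activin A library placed the 8 rises at ranks from 9.77 to 82.8 and the control library from 7.94 to 85.5. The Wnt3a library placed each of them at or below 12.03. In 17q11.2 the ranks were 91.6 after both ligands, 2.50 after Wnt3a, 50.4 after Activin A and 85.5 in control. In 5q31.2 they were 94.3, 12.03, 9.77 and 53.6 in the same order, so that there the Activin A library was below Wnt3a.

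The 8 named falls were narrow, from 378 to 1156 bp with a median of 693.5 bp, against 1042 to 5753 bp and a median of 2334.5 bp for the rises. The first, in 1q12 beside the centromere of chromosome 1 (chr1:142538188-142539343), had 58.6 after both ligands, 199 after Wnt3a, 465 after Activin A and 712 in control. Its rank over regions in all 4 lists was 0.70 after both ligands, 87.0 after Wnt3a, 52.8 after Activin A and 99.5 in control. The gap between the combined and Wnt3a ranks was set by the choice of region, and the Activin A rank lay between combined and control. In 19q13.12 (chr19:38067570-38068248) the scores were 101 after both ligands, 230 after Wnt3a, 230 after Activin A and 136 in control. In Xq25 (chrX:125863026-125863696) they were 134, 423, 439 and 332, and in 2q14.1 (chr2:117780966-117781709) 136, 348, 315 and 332, in the same order. The control rank of that pair was 96.7 in each case, while the Activin A ranks were 48.8 and 28.8. The region in 7q36.1 (chr7:148768545-148769417) had 124 after both ligands, 200.4 after Wnt3a and 353 after Activin A and was the named fall with no control peak. The others were in 8q22.3 (chr8:104102257-104102964), Xp11.21 (chrX:55207746-55208246) and 17p11.2 (chr17:22027351-22027728), with changes of -78.0, -76.4 and -73.5 points. Ranked within the full lists, the falls were smaller, with changes of -39.2, -37.2 and -34.1 points for these regions, -41.3 in 19q13.12, -33.9 in Xq25, -32.4 in 2q14.1 and -29.3 in 7q36.1, and -75.2 in 1q12. The 8 rises had 78.3 to 95.2 points by that ranking, close to the 79.3 to 90.7 points among shared regions. Xp11.21 thus held both a named fall, ending at position 55208246, and a named Wnt3a-only region, starting at position 55209579. They are close neighbours, and whether they are separate sites was not tested. The part of reads from other copies of a sequence was not tested for the named falls.

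The regions at the very top, chosen by their mean rank, are given as a description. The 5 shared regions with the best mean rank scored 3100 after both ligands and 3100 to 3153 after Wnt3a, and 24 combined peaks and 18 Wnt3a peaks reached 3000. They lay in 18q11.1 (chr18:18515373-18520490), 20p11.1 (chr20:26188393-26190660), 1p36.33 (chr1:564293-570469), 1p11.2 (chr1:121483758-121485577) and 11p15.4 (chr11:10529319-10532243). The bands 18q11.1, 20p11.1 and 1p11.2 adjoin a centromere, and the stretch in 1p36.33 holds a nuclear copy of mitochondrial DNA. The part of reads from other copies of these sequences was not tested.

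Over the 13063 regions with a peak in all 4 lists, ranked among themselves, 2002 (15.3%) rose and 1985 (15.2%) fell by over 25 points. Their combined and Wnt3a ranks were fixed by that choice, and the other libraries' ranks were not. Among the rises the median rank was 65.6 after both ligands, 20.7 after Wnt3a, 56.7 after Activin A and 55.1 in control. Among the falls it was 23.0 after both ligands, 64.5 after Wnt3a, 34.0 after Activin A and 37.2 in control. In both classes the Activin A and control medians lay nearer to the combined than to the Wnt3a median. Over all 13063 regions the Activin A and control medians were 50.0. At the rises that rank too lies nearer to the combined median, and at the falls it lies nearer to the Wnt3a median. Region by region, the Activin A rank was nearer to the combined rank in 71.6% of rises and 69.4% of falls. The control rank was nearer to the combined rank in 63.9% of rises and 58.2% of falls. Those shares were not taken over all 13063 regions, so they have no background beside them. Wnt3a ranks were also the least like those of each other library. For changes of over 50 points the medians were 75.8 after both ligands, 11.3 after Wnt3a, 63.0 after Activin A and 59.2 in control at 437 rises, and 13.7, 75.04, 29.3 and 36.9 at 296 falls.

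**Figure D4:**
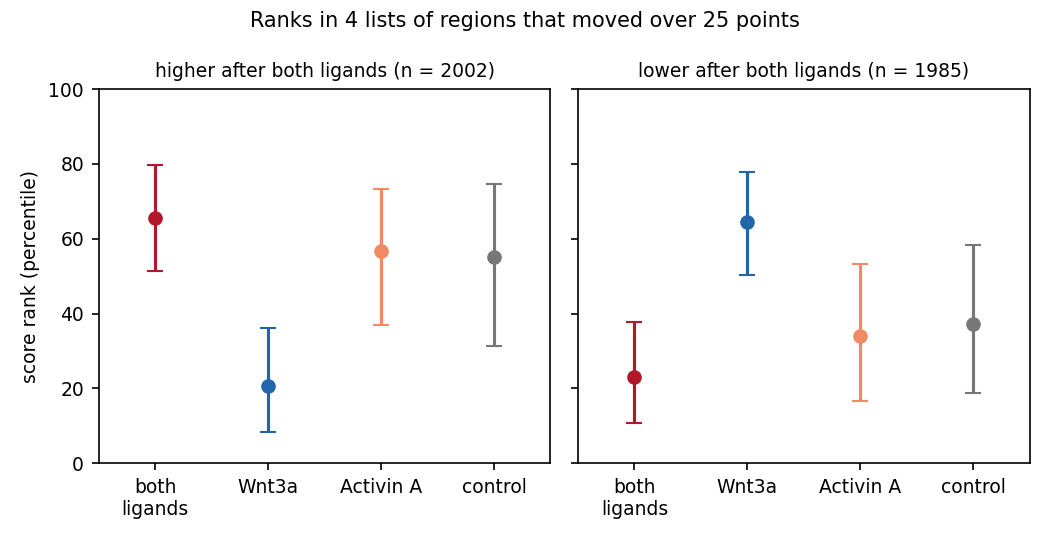
Median percentile rank (points) with quartiles (bars) in each of the 4 libraries, over regions with a peak in all 4 lists, for the 2002 regions that ranked over 25 points higher after both ligands than after Wnt3a (left) and the 1985 that ranked over 25 points lower (right). The first pair of points in each panel is set by the choice of regions. The Activin A and control medians, 56.7 and 55.1 at left and 34.0 and 37.2 at right, lie nearer to the combined median. At left so does a rank of 50.0, their median over all 13063 regions.

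Over all 13063 regions the combined ranks were closer to those of Activin A than to those of Wnt3a. As a description across regions, which are not replicates, Spearman's rho was 0.797 between combined and Activin A, 0.616 between combined and Wnt3a and 0.660 between combined and control. It was 0.619 between Wnt3a and Activin A, 0.536 between Wnt3a and control and 0.653 between Activin A and control. Each of the other 3 libraries thus had its lowest rho with Wnt3a, the shortest list. Changes of over 25 points were found in 16.2% of regions between combined and Activin A, against 30.5% between combined and Wnt3a. The combined minus Wnt3a change had the same sign as the Activin A minus control change, from the other pair that differs by Activin A, at 6718 regions (51.4%), and these changes share no library. Among the 2002 rises the Activin A rank was above control at 51.4%, and among the 1985 falls at 44.8%, against 49.2% over all 13063 regions.

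Width moved with the rank changes. Over the regions with a peak in all 4 lists, the median region width was 1513 bp at rises and 1029 bp at falls. It was 1259 bp where the change was within 25 points, though merging lets a wide combined peak widen its region. The width of the control peak, which neither list sets, was 874.5 bp at rises, 721 bp at falls and 827 bp in between. Shared regions with a control peak were then split into quintiles of its width, with changes taken from the ranks among all shared regions. In the quintile with the narrowest control peaks (300 to 601 bp), the median change was -2.90 points and 19.9% of regions fell against 15.8% that rose. In the quintile with the widest (1092 to 7170 bp) the median was 1.97 points and 3.89% fell against 16.7% that rose. The share of falls decreased in each step from narrow to wide, through 15.7%, 11.8% and 8.19%. The share of rises showed no such order, at 17.3%, 19.9% and 18.9% in the steps between. Score rank went with control width as well. From the narrowest to the widest quintile the median combined rank went from 38.6 to 86.7 and the median Wnt3a rank from 40.7 to 83.1. The SD of the change went from 27.2 to 20.8 points. Width and rank were not separated, and the part of either in the changes was not tested.

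Rank changes of neighbouring regions were nearly unrelated. Across pairs of adjacent shared regions up to 2 kb apart, Spearman's rho between their rank changes was 0.00918 (992 pairs), and between 50 and 200 kb apart it was 0.0224 (6077 pairs).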

How the data were processed

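ATAC-seq of H1 cells gave 4 libraries, 1 per group as labelled. Tools named in the submitters' processing notes are Bowtie2 2.2.2 and CASAVA 1.8, with build hg19. The deposited lists have 5 columns, and the score in the last is the authors' own value for each peak. Its values appear to be a p-value taken within a library, as -10 times its base-10 logarithm, so it was used for ranks and filters within a list only. Caller settings, transposase shift, duplicate removal and read numbers are not given in the sources used here, and each would change how many weak peaks are listed.

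Overlapping or touching peaks were merged, and percentile ranks were taken of the best score per region. Named regions were the 10 combined-only and 5 Wnt3a-only regions with the highest scores, the 8 largest rises and 8 largest falls among shared regions with 1 side at or above the 90th percentile, and the 5 with the best mean rank. Members and lists were chosen with earlier results of these data known. Shares have exact (Clopper-Pearson) intervals. Gene starts on hg19 came from the gene sample distributed with GenomicFeatures 1.54.1, of whose 44 genes 43 matched a RefSeq symbol. Bands came from circlize 0.4.16. Planned lists of signalling targets and marker genes, and the nearest gene of each named region, were not analysed here, since the genome tables used are on another build. Scripts ran in Python 3.11.15 with numpy 2.4.6, pandas 2.3.3, scipy 1.17.1 and matplotlib 3.10.9 and were tested on simulated data.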

Additional observations from a re-analysis of the deposited data

How the results depend on the processing

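Of the values recomputed under the alternative settings, 65 kept within their bounds, 41 moved and 2, both medians of the rank change, took the other sign. The cause of the moves was not tested. Some settings let fewer peaks enter, while those for 50% overlap and for 500 bases kept all peaks and changed the overlap rule or peak width. Requiring 50% overlap gave 8225 Wnt3a-only regions, a median rank change of 12 points and 3844 rises. Peaks set to 500 bases gave 3214 Wnt3a-only regions. The best 50% of both lists gave 19512 combined-only, 694 Wnt3a-only and 9612 shared regions, and the best 25% set against the whole other list gave 3232 and 19. Lists of equal length gave 7190 combined-only and 6270 Wnt3a-only regions. The median rank change came to -0.74 points among shared regions, with 2779 rises and 2745 falls, and to -0.23 points in lists of equal length, with 2209 of each. Ranking among shared regions centres the changes by construction, so the value of -0.74 is not a change of direction. Lists of equal length were ranked whole, and the median of 17.5 points in the full lists was no longer found there. Of the 8 named falls, 7 shrank by over 1.5 times when ranked in the full lists, to between -41.3 and -29.3 points. In lists of equal length 2 had a value, and these were larger falls, -95.1 points in Xq25 and -92.3 points in 2q14.1. The other named falls were not shared regions in those lists. Combined-only regions had an Activin A peak, a control peak or the first without the second in 57.9%, 44.6% and 24.6% of cases with lists cut to the shortest, and in 99.0%, 67.6% and 31.9% in the best 25%. With 50% of the region covered, the Activin A and control shares were 66.9% and 17.1%. The shares for shared regions were 89.6%, 78.4% and 15.4% with lists cut, 94.7%, 56.2% and 39.4% with 50% covered and 99.9%, 89.3% and 10.6% in the best 25%. With 5 kb around gene starts, 6 genes were combined-only. No paired analysis was possible because neither side of the comparison has a second library. Unknown read depth limits any statement that a region was closed, and a missing peak means only that none passed the caller's threshold.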

Other observations

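Some cytogenetic bands had rank changes to 1 side of the rest, and these were picked after their values were seen. Among 194 bands with at least 30 shared regions, the median change per band lay between -7.01 and 4.89 points from the 5th to the 95th percentile. Band 14q11.2 had the highest median, 13.8 points over 67 shared regions, of which 50 ranked higher after both ligands, 19 rose and 3 fell by over 25 points. Over all shared regions 48.0% ranked higher, 15.3% rose and 15.1% fell. Its median ranks over regions in all 4 lists were 73.1 after both ligands, 54.7 after Wnt3a, 64.8 after Activin A and 69.7 in control. On GRCh38.p14 the band holds 110 protein-coding genes, of which 24 are olfactory receptor genes, as well as 127 segments of T-cell receptor genes. Band 6p22.2, the site of the large histone gene cluster, had a median of 13.7 points over 36 shared regions, with 12 rises and 2 falls. Its median ranks were 41.6 after both ligands, 30.4 after Wnt3a, 29.7 after Activin A and 34.4 in control, and it holds 34 histone and 47 tRNA genes. The lowest medians were -11.8 points in 5q33.1 (30 regions) and -11.7 points in 11q25 (31 regions).

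Band 19q13.43, where 63 of 92 protein-coding genes are zinc finger genes, had the lowest share of combined-only regions among these bands. Of its 98 combined regions, 36.7% (exact 95% interval 27.2 to 47.1) had no Wnt3a peak, against 38.7% taken from all combined regions of like score. On chromosome 19 as a whole the share was 58.6%, against 59.6% from all regions of like score. Shared regions of chromosome X had a median rank change of -5.48 points (254 regions) and those of chromosome Y one of -11.3 points (18 regions), while the autosomes had medians from -2.28 on chromosome 10 to 0.72 on chromosome 17.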
